A study of Homo sapiens with 22 samples.

Results

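Cluster 3 of the WM983B melanoma cells is a group of 90 cells out of 1449 in that library, 6.21% of its cells (5.02 to 7.58%, exact Clopper-Pearson interval at 95%), and out of 54001 cells in all single-cell libraries of the study. Its members were taken from the cluster number that the authors deposited for each cell. None of them carries the deposited primed label, which all cells of clusters 0 and 2 carry. The study used single-cell RNA sequencing to separate drug-susceptible melanoma cells from cells in a primed state, which are more likely to survive BRAF and MEK inhibitors. WM983B is a melanoma line, and the cells came from E9-D5, a clone that had passed through a single cell at 2 separate steps. The cells were untreated and grew for about 4 divisions in 1 well before 10x Genomics 3′ sequencing, and they gave 1 library. The other single-cell libraries hold WM989, another melanoma line, untreated or given TGFB1, a TGF-beta receptor inhibitor or a PI3K inhibitor. Libraries of the treatment experiment are labelled Mix or Primed, each with a control and the same treatments. With 1 library there is no replicate of WM983B, and the clusters were drawn on the same counts that are compared here, so every difference below is a description without a test.

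A dividing cell copies its DNA in S phase and then passes through G2 into mitosis (M). Genes for replication peak in S phase, and genes for the spindle, the kinetochore and chromosome condensation peak in G2 and M, so that a cell is usually high in one group and low in the other. Melanoma cells also differ in how much of the pigment program they use, led by MITF and SOX10, and cells low in it often carry receptors, cytokines and matrix genes instead. Nuclear RNAs such as MALAT1 stay in the nucleus, and their share of a cell's RNA reflects how much nuclear RNA was captured along with the cytoplasm.

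By the authors' phase calls 79 of the 90 cells were in G2M, 87.8% (79.2 to 93.7%), with 7 in S and 4 in G1. The share was 32.3% in cluster 0, 34.2% in cluster 1 and 20.9% in cluster 2. Cluster 3 thus held 15.2% of the 520 G2M cells of the library. A phase call set here from the mean standardized level of the same S and G2M gene lists put 69 of the 90 cells in G2M, 76.7%, against 29.2%, 29.9% and 19.8% in clusters 0, 1 and 2.

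The cells were deep. The median was 84240 unique molecular identifiers (UMIs) per cell, with a range of 42079 to 132999, against medians of 63102.5, 70605.5 and 68760 in clusters 0, 1 and 2. Among G2M cells cluster 3 was not the deepest group, with medians of 81548 in cluster 3, 72820 in cluster 0, 81255 in cluster 1 and 86845 in the 19 cells of cluster 2. The median number of genes was 9045, and the deposited cells of the library held between 7001 and 9999 genes. The median percent of mitochondrial UMIs was 6.71 in cluster 3, 8.11 in cluster 0, 8.26 in cluster 1 and 6.50 in cluster 2. The summed counts were 7484811 UMIs for cluster 3 and 95253587 for the other 3 clusters. None of the 90 cell barcodes was shared with a WM989 experiment. In clusters 0 to 2 only 7 of 1359 were shared with untreated WM989 and 11 with the treatment experiment. At such shares few or none would be found among 90 cells, so this does not set cluster 3 apart. Levels are given in CPM, counts scaled to the same total for each group, per 1000000 UMIs. The 9 genes of WM989 cells that were under 1 CPM in the rest of WM983B summed to 0.935 CPM in cluster 3. The sum was 0.598 in clusters 0 to 2 and 1227 in untreated WM989. Markers of leukocytes and of endothelial cells were low as well. Those of fibroblasts and keratinocytes had larger sums, and the keratinocyte sum was above that of clusters 0 to 2. The 8 leukocyte markers summed to 16.2 CPM with 3 of them at 0, the 8 endothelial markers to 1.87 CPM with 3 at 0, the 8 fibroblast markers to 80.6 CPM with 1 at 0 and the 8 keratinocyte markers to 190.0 CPM with 5 at 0, and in clusters 0 to 2 the sums were 16.8, 1.90, 100.02 and 152 CPM.

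A set of 5 genes put cluster 3 apart from every other cluster. AC092069.1, LRRC75A, C1orf56, PHKG1 and AC106707.1 each had a CPM more than 4 times that of clusters 0, 1 and 2 together. LRRC75A reached 329.6 CPM (exact Poisson interval 317 to 343, counting error only), against 41.1, 43.5 and 33.0 CPM in clusters 0, 1 and 2. Its ratio to the 3 together was 7.90 (7.51 to 8.31). AC092069.1, a gene named by its clone, was at 119 CPM against 12.9, 12.7 and 11.01, a ratio of 9.38 (8.59 to 10.2). C1orf56 was at 125 CPM against 18.7, 17.5 and 19.2, a ratio of 6.86 (6.33 to 7.44). PHKG1, a catalytic subunit of phosphorylase kinase, which starts glycogen breakdown, was at 92.3 CPM against 17.1, 16.2 and 22.9, a ratio of 5.42 (4.95 to 5.93). AC106707.1 was the lowest of the group at 22.3 CPM, with a ratio of 5.06 (4.20 to 6.07). For each of these genes clusters 0, 1 and 2 lay close together and cluster 3 stood alone.

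Summed per cell, the 5 genes had a median of 801 CPM in cluster 3, with a 10th percentile of 203 and a 90th percentile of 1023. The medians were 76.1, 73.1 and 82.6 CPM in clusters 0, 1 and 2. More than 500 CPM was found in 73 of the 90 cells of cluster 3, in 2 of 640 cells of cluster 0, in 3 of 628 of cluster 1 and in 0 of 91 of cluster 2. The cells of cluster 3 that were not called G2M carried little of the pattern. Their median was 107 CPM, with a range of 35.6 to 955, and 1 of the 11 passed 500 CPM, against 72 of the 79 G2M cells. Across the 90 cells the summed level had a Spearman's rho of -0.51 with the UMI count and 0.33 with the mitochondrial percent. The genes also ran together from cell to cell, with rho between 0.24 and 0.62 over the 10 pairs in cluster 3 and between 0.14 and 0.39 over the 1359 cells of the other clusters. These rho took in the 11 cells not called G2M and cells of unlike depth, without thinning. The genes were lower in the other clusters, so counting error weighs more on the rho there. All of these cells share 1 library, and cells of one cluster were grouped by such genes.

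**Figure D1:**
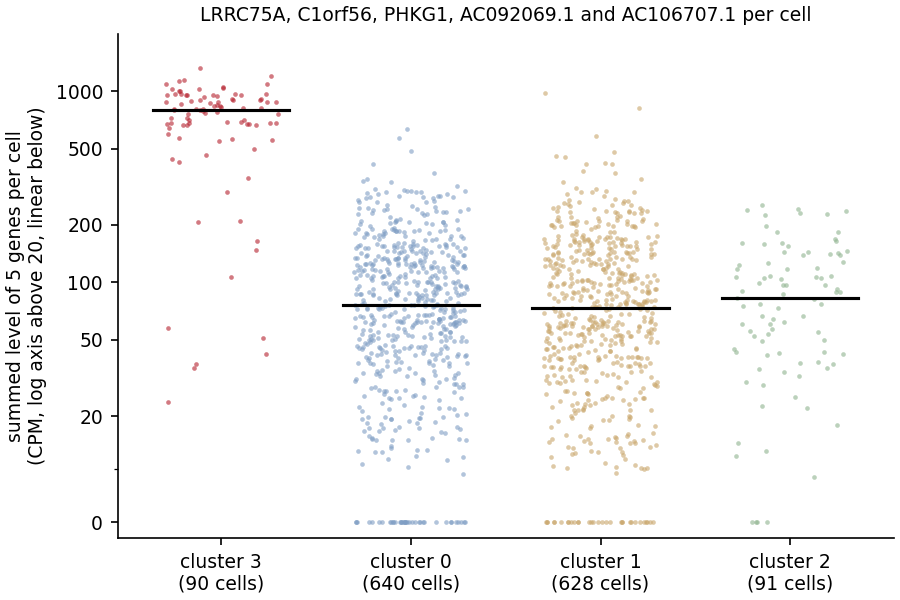
Summed level of LRRC75A, C1orf56, PHKG1, AC092069.1 and AC106707.1 in each WM983B cell, by cluster, in CPM on an axis that is logarithmic above 20 CPM and linear below. Each point is a cell and each bar the median of a cluster, which is 801 CPM in cluster 3 and between 73.1 and 82.6 CPM in the others.

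LRRC75A, C1orf56 and PHKG1 each overlap a gene on the opposite strand in GENCODE release 44 on hg38. LRRC75A lies on chromosome 17 from 16441577 to 16492193 on the minus strand, and 38673 bases of it overlap SNHG29, a small nucleolar RNA host gene, which was at 1022 CPM in cluster 3 and 727 CPM in clusters 0 to 2. C1orf56 lies on chromosome 1 from 151047751 to 151051986 on the plus strand and shares 1016 bases with CDC42SE1, an effector of the GTPase CDC42, which was at 99.4 CPM against 48.5. PHKG1 lies on chromosome 7 from 56080283 to 56092996 on the minus strand and shares 388 bases with SUMF2, which was at 196 CPM against 217. The partner was thus higher at 2 of the 3 loci and not at the third. Whether strand was used in counting is not given in the sources used here, so reads of such pairs may not be fully told apart. Of the tested genes found in the annotation, 60.5% of 6539 overlapped a gene on the opposite strand, and among the 15 with the highest ratios it was 10 of 13. AC092069.1 and AC106707.1 had no match by symbol.

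The 5 genes were low throughout the WM989 cells. Their sum was between 67.3 and 120.3 CPM over the 11 clusters of untreated WM989 and between 55.3 and 89.7 CPM over the 13 clusters of the treatment experiment, against 688 CPM in cluster 3 of WM983B, each table scaled to CPM on its own. No WM989 cluster came near that level.

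Beyond these genes the average profile of cluster 3 differed little from the rest of the library. A floor of 20 CPM in cluster 3 or in the rest left 6697 genes, of which 9 were more than 2-fold higher in cluster 3, 0.134% of the genes tested, and 1 was more than 2-fold lower, 0.0149%. The same measure gave 76 higher and 50 lower for cluster 0 against the others, 48 and 108 for cluster 1 and 85 and 36 for cluster 2. Against cluster 0 alone, 0.31% of genes were more than 2-fold higher in cluster 3 and 0.177% lower. Against cluster 1 it was 0.759% and 0.298%, and against cluster 2 it was 0.471% and 1.97%. The median log2 ratio of all tested genes to clusters 0, 1 and 2 was -0.12, and 4618 of the 6697 were lower in cluster 3. Of the tested genes 4568 of 6777 were lower than in cluster 0, 4459 of 6722 lower than in cluster 1 and 4085 of 6789 lower than in cluster 2. The counts and medians of gene groups below should be read against these.

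The other genes past 2-fold were KRT81, TGM2, CDC42SE1 and SAA1. KRT81, a hair keratin, was at 162 CPM in cluster 3 and at 107, 11.7 and 8.68 CPM in clusters 0, 1 and 2. Part of its sum came from few cells. The median cell of cluster 3 had 106 CPM and the highest 3449 CPM, and the G2M cells together had 117 CPM. KRT81 overlaps KRT86, a close relative on the other strand of the annotation, which was at 2.405 CPM, so its counts may be shared with that gene. TGM2, a transglutaminase that crosslinks proteins, was at 39.0 CPM against 31.5, 7.26 and 21.9. SAA1, an acute-phase protein, was at 43.6 CPM against 38.8, 6.68 and 12.6. For these 3 genes cluster 0 was the nearest and clusters 1 and 2 were lower, and the ratios to the 3 clusters together were 3.01, 2.05 and 2.04. Among G2M cells alone the ratios were 1.52, 1.81 and 1.28. All 5 markers proposed for the cluster, LRRC75A, C1orf56, KRT81, TGM2 and SAA1, were higher. They were proposed with earlier results of these data known, so this is no separate finding. KRT81, TGM2 and SAA1 set cluster 3 apart less in the comparison with the G2M cells of clusters 0 and 1. That comparison leaves out cluster 2 and the other phases together. Cluster 2 gave 6451393 of the 95253587 UMIs of clusters 0 to 2, a small part of the pooled level. The part of phase in the smaller ratios was not tested.

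The next genes in order were CTNNB1, CTBP1, IL11, HNRNPH1, SPC24 and GMFG, with ratios from 1.97 to 1.60. CTNNB1, which encodes beta-catenin, was at 314 CPM (302 to 327) against 146, 175 and 141 CPM. HNRNPH1, a splicing regulator, was at 257 CPM against 162, 155 and 121, and CTBP1, a transcriptional corepressor, at 58.5 CPM against 34.0, 35.4 and 32.1. In these, as in the leading genes, cluster 3 lay outside the range of the other clusters. IL11, a cytokine of the gp130 family, was at 24.98 CPM, between 28.8 in cluster 0 and 1.70 in cluster 1.

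At the low end IFIT2, an interferon-induced gene, had a ratio of 0.339 (0.283 to 0.403). It was at 17.8 CPM in cluster 3, 102 in cluster 0, 13.8 in cluster 1 and 5.27 in cluster 2, and the level in cluster 0 included a cell with 16021 CPM. HNRNPL, another splicing regulator, was at 23.2 CPM against 48.1, 43.2 and 37.98 CPM, below all 3 clusters. HSPA5, the main chaperone of the endoplasmic reticulum, was at 316 CPM against 636, 487 and 568. TFRC, the transferrin receptor, was at 17.5 CPM against 26.5, 36.3 and 26.7, and SLC11A2, an iron transporter, at 17.4 CPM against 22.6, 35.2 and 29.0. DCT, an enzyme of melanin synthesis, was at 158 CPM, between 97.1 in cluster 0 and 466 in cluster 1.

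**Figure D2:**
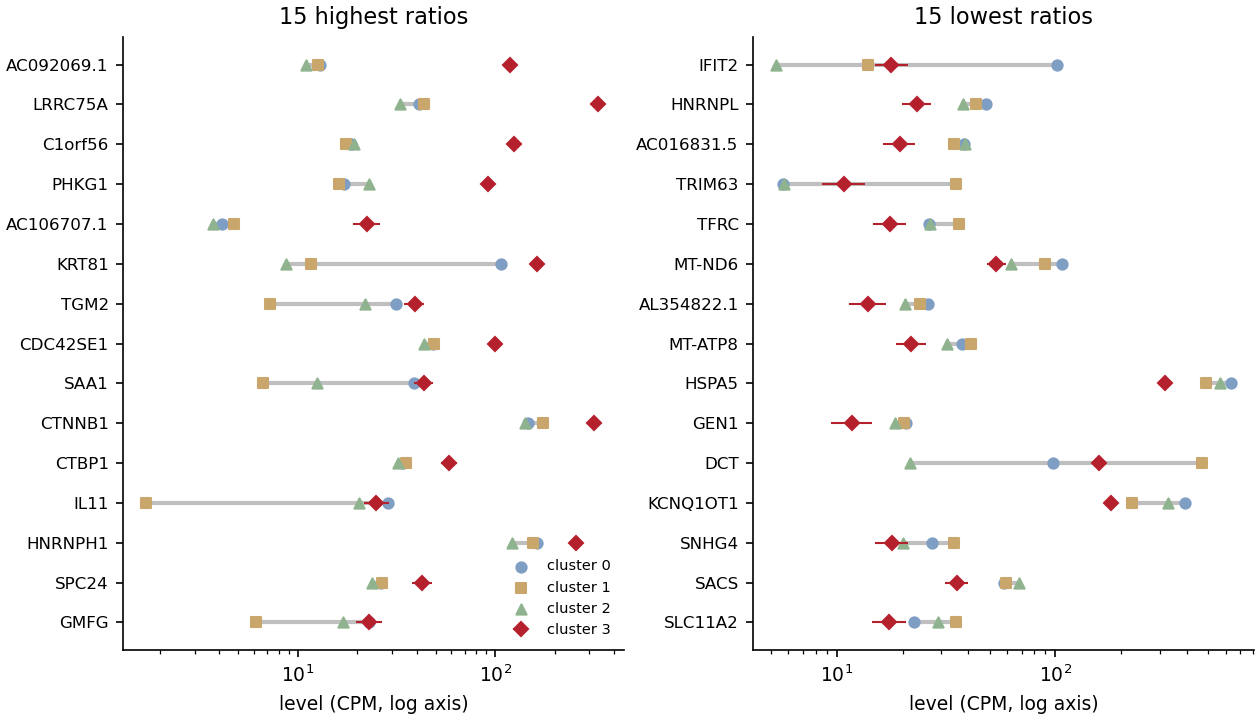
Level in CPM, on a logarithmic axis, of the 15 genes with the highest and the 15 with the lowest ratio of cluster 3 to clusters 0, 1 and 2. Diamonds are cluster 3 with exact Poisson intervals at 95% and the other symbols are clusters 0, 1 and 2, joined by a grey line. LRRC75A at 329.6 CPM lies far from the other clusters, while KRT81, IL11 and DCT differ as much among the other clusters.

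Cells called G2M in cluster 3 did not look like the G2M cells of clusters 0 and 1. Their median G2M score was 0.315 (SD 0.115 over 79 cells), against 0.835 in the G2M cells of cluster 0 and 0.697 in those of cluster 1. Their median S score was 0.122, against -0.215 and -0.206. The S score was above 0 in 69 of the 79 cells, 87.3%, but in 36.2% and 35.3% of the G2M cells of clusters 0 and 1. A raised S score was not particular to cluster 3, since it was above 0 in 14 of the 19 G2M cells of cluster 2, with a median of 0.248, but there the median G2M score was 0.788. In 77 of the 79 the G2M score was less than 0.5 above the S score, against 27.5% and 31.6%, and 47.4% in cluster 2. Most of the cells thus carried both scores at a moderate level, and the label of a G2M group rests on a small margin.

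**Figure D3:**
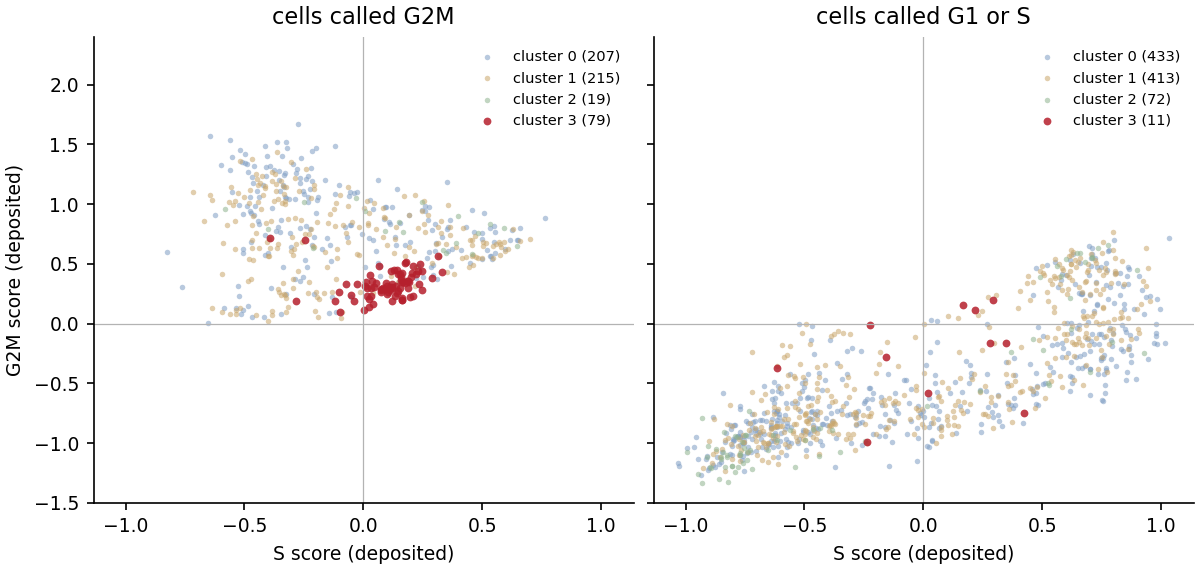
Deposited S score (x axis) and G2M score (y axis) of each WM983B cell, for cells called G2M on the left and cells called G1 or S on the right, coloured by cluster. The 79 G2M cells of cluster 3 crowd near a median of 0.122 on the S score and 0.315 on the G2M score, below most G2M cells of clusters 0 and 1.

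The genes behind the scores showed the same. All 54 G2M scoring genes were lower in the G2M cells of cluster 3 than in those of clusters 0 and 1, 19 of them more than 2-fold, with a median log2 ratio of -0.91. In sum they made up 7911 CPM against 14565 CPM. The phase calls were made from these genes, so the comparison is between cells chosen on them. The sum in the G2M cells of cluster 3 lay close to that of all cells of clusters 0 to 2 with the phases pooled, 7921 CPM. Over all cells of cluster 3 the sum was 7416 CPM. Over all tested genes 0.163% were more than 2-fold higher and 0.639% more than 2-fold lower in the G2M comparison, which is 11 and 43 genes, or 13 and 29 after the ratios were centred on their median. The lowest were ASPM, a spindle pole protein, at 181 CPM against 511 (ratio 0.354), BUB1B of the spindle checkpoint at 29.4 against 80.1 (0.368) and NEK2, a centrosome kinase, at 30.2 against 77.6 (0.389). CENPE, a kinetochore motor, was at 115 CPM against 281.

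S-phase genes stood the other way round in single cases. Of 39 tested S-phase scoring genes 23 were higher and 16 lower in the G2M cells of cluster 3, with a median log2 ratio of 0.05, against 2290 higher and 4443 lower of all 6733 genes tested with a median of -0.10. The list had a summed level of 3387 CPM against 3439.7. CCNE2, a cyclin of S-phase entry, was at 30.2 CPM against 12.2 (2.48, interval 2.08 to 2.96), and UNG, a DNA repair glycosylase, at 21.3 against 9.62 (2.21). PCNA, the sliding clamp of DNA replication, was at 235 CPM against 148. The other genes at the high end of the G2M comparison were the 5 leading genes, with ratios from 6.75 to 10.2, and NRG1 (2.78), CCL2 (2.41) and CTNNB1 (2.38).

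Cluster 3 also differed in the spread between its cells. The Fano factor, the variance of a gene's counts over their mean, was taken after each cell was thinned to 30000 UMIs. It is near 1 where cells differ only by counting. Over 6697 genes the median was 1.05 in the G2M cells of cluster 3, 1.23 in the G2M cells of cluster 0 and 1.197 in those of cluster 1. It was over 2 for 111 genes in cluster 3, 1.66%, against 700 genes, 10.5%, and 535 genes, 7.99%. In the 19 G2M cells of cluster 2 the median was 1.14, with 680 genes over 2. Each cell was also correlated with the mean profile of clusters 0, 1 and 2, on log counts after thinning. The median was 0.843 in the G2M cells of cluster 3, 0.809 in those of cluster 0 and 0.819 in those of cluster 1. That reference leaves cluster 3 out, so the value gives likeness to the other clusters and not spread within cluster 3.

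Cell cycle genes are examples, chosen after their values were seen. UBE2C, which works with the anaphase-promoting complex, lay between 273 CPM at the 10th and 459 CPM at the 90th percentile of the G2M cells of cluster 3. In the G2M cells of cluster 0 it lay between 123 and 1660.3 CPM, and in those of cluster 1 between 125 and 1354. Its Fano factors were 1.37, 15.5 and 10.0. PCNA lay between 154 and 327 CPM in cluster 3 and between 36.6 and 349 CPM in cluster 0. From the 10th to the 90th percentile the cells of cluster 3 kept to a narrow band in both genes. Not every such gene was narrower in cluster 3. NASP, a histone chaperone, had Fano factors of 2.50, 2.03 and 2.05, and MSH6, a mismatch repair protein, of 1.88, 1.63 and 1.48, while RRM2, a ribonucleotide reductase subunit, had 1.33, 6.04 and 5.19. CDK1, the mitotic kinase, was found in 97.5% of the G2M cells of cluster 3 after thinning, against 77.8% and 75.3%. Among G2M cells the SD of the deposited G2M score was 0.115 in cluster 3, against 0.367, 0.324 and 0.151 in clusters 0, 1 and 2, so that cluster 2 lay close to cluster 3. The SD of the S score was 0.124, against 0.361, 0.361 and 0.347.

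The spread was also smaller for 3 inducible genes chosen after their values were seen. CCL2, a monocyte-attracting chemokine, lay between 291 and 517 CPM in the G2M cells of cluster 3 and between 15.3 and 1012 CPM in those of cluster 0. IFIT3, an interferon-induced gene, had Fano factors of 1.29, 49.3 and 16.7, and ISG15, an interferon-induced ubiquitin-like protein, of 1.58, 31.5 and 17.8. These genes were found in nearly every cell of cluster 3, and their levels ranged more widely in clusters 0 and 1.

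**Figure D4:**
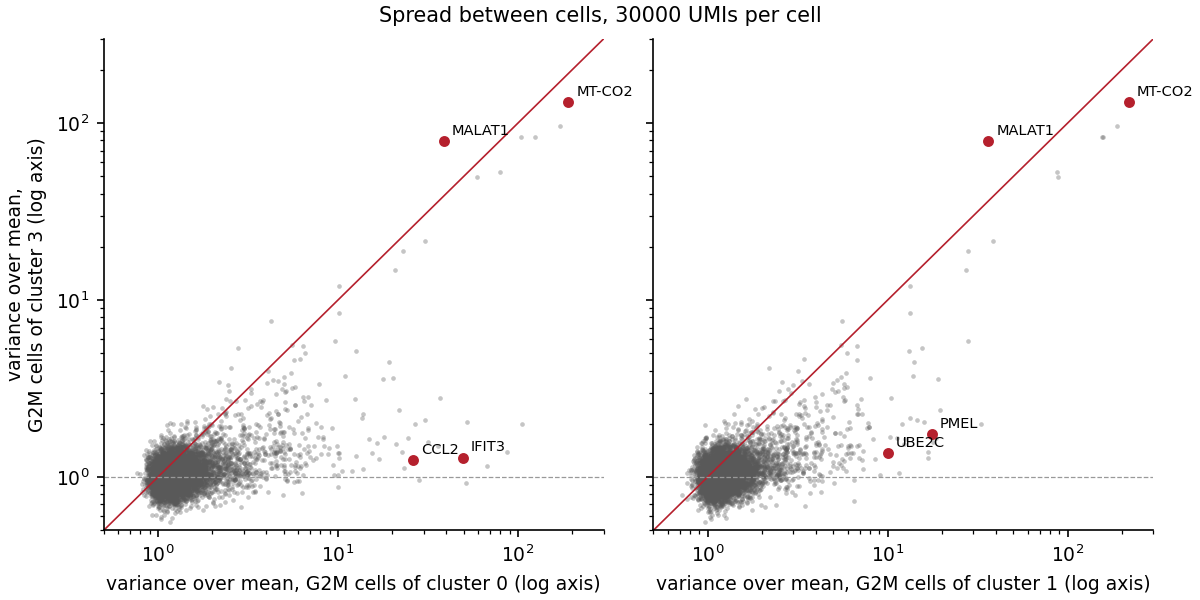
Fano factor (variance over mean across cells, each thinned to 30000 UMIs) of 6697 genes in the G2M cells of cluster 3 (y axis) against those of cluster 0 (left) and cluster 1 (right), on logarithmic axes. The red line marks equal values and the dashed line 1. UBE2C lies below the red line with 1.37 against 10.0 in cluster 1, and MALAT1 lies above it with 79.0 against 38.6 in cluster 0.

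For genes that set clusters 0 and 1 apart, cluster 3 mostly lay in between. Of 123 genes more than 2-fold higher in cluster 0 than in cluster 1, cluster 3 lay between the pair for 117, at a median of 54.98% of the way from cluster 1 to cluster 0. Of 57 genes more than 2-fold higher in cluster 1, it lay between for all 57, at a median of 66.5% of the way from cluster 1 to cluster 0, and so nearer to cluster 0. Scored cell by cell, as the log2 ratio of the sums of both gene sets after thinning, cluster 3 had a median of 1.08 with an SD of 0.368. Cluster 0 had a median of 2.35 with an SD of 1.24, cluster 1 of -0.68 with an SD of 1.03 and cluster 2 of 1.58 with an SD of 1.201. From the 10th to the 90th percentile the cells of cluster 3 lay between 0.69 and 1.45, and those of clusters 0 and 1 between 0.77 and 3.99 and between -2.09 and 0.57. The genes of this score were chosen only from the contrast between cluster 0 and cluster 1. The values of those clusters are set by that choice. Genes chosen for a gap of more than 2-fold also leave much room for any other group to lie in between. No such count was made for cluster 2 or for all tested genes. Whether 117 of 123 and 57 of 57 genes in between is particular to cluster 3 was thus not tested.

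Detection is given for KRT81 and IL11, which were higher in cluster 0 than in cluster 1, and for MLANA and DCT, which were lower, all chosen after their values were seen. After thinning, KRT81 had a UMI in 91.1% of cells of cluster 3 and in 43.0%, 13.5% and 10.99% of clusters 0, 1 and 2. MLANA, a melanosome antigen, had a UMI in 51.1% of cluster 3 and in 3.44%, 39.3% and 6.59%, and DCT in 94.4% against 36.9%, 90.6% and 28.6%. IL11 had a UMI in 51.1% of cells against 15.2%, 2.71% and 22.0%. Without thinning the shares in cluster 3 were 98.9% for KRT81, 83.3% for MLANA, 97.8% for DCT and 78.9% for IL11. The library holds no cell type that should lack these genes, and droplets without cells were not analysed here, so the share that free RNA gives was not measured. The lowest shares after thinning were 3.44% for MLANA in cluster 0 and 2.71% for IL11 in cluster 1. The part of free RNA in these shares was not tested.

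The markers of the study were mixed. For NT5E, AXL, NGFR and MITF cluster 3 lay between clusters 0 and 1, and for SOX10 it lay below all of the other clusters. NT5E, the surface marker of primed cells, was at 72.1 CPM against 84.2, 35.9 and 94.2 in clusters 0, 1 and 2. AXL, a receptor tyrosine kinase, was at 53.2 CPM against 80.8, 19.5 and 45.6, and NGFR, a neurotrophin receptor, at 30.3 against 58.1, 9.39 and 42.5. EGFR was low throughout, at 2.14 CPM with 16 UMIs against 3.33, 2.22 and 1.86. Among the drug-susceptible markers SOX10 was at 162 CPM against 192, 215 and 187, and MITF at 220.3 CPM against 188, 419.7 and 258. Of 12 tested primed markers 4 were higher and 8 lower than in clusters 0 to 2, none past 2-fold, with a median log2 ratio of -0.14, close to that of all genes. Against cluster 0 alone 13 of 14 were lower, against cluster 2 alone 11 of 14, 4 of them past 2-fold, and against cluster 1 alone 11 of 12 were higher, 6 of them past 2-fold. In the G2M comparison 7 of 12 were higher, with a median of 0.12. That median was 0.01 with the mean of CPM per cell and 0.004 after thinning. It was 0.22 after centring and 0.18 with mitochondrial and ribosomal protein genes left out of the total. Of 13 melanocyte markers 11 were lower, with a median of -0.36. Against cluster 1 alone 12 of 14 were lower, 6 of them past 2-fold, with a median of -0.95, but against cluster 0 alone 8 of 12 were higher, with a median of 0.14.

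Other gene groups differed little from clusters 0 to 2 together, but several lay on opposite sides of single clusters. All 5 tested keratins were higher, with a median log2 ratio of 0.37, from KRT18 with a ratio of 1.14 to KRT81. Against cluster 0 alone 3 were higher and 3 lower of 6, with a median of -0.05, and against cluster 1 alone 5 of 5 were higher, 2 of them past 2-fold, with a median of 0.84. Of 18 interferon-stimulated genes 12 were lower, with a median of -0.15, and IFIT2 was the single member past 2-fold. Against cluster 0 alone 17 of 19 were lower, and against cluster 1 alone 13 of 15 were higher. Of 11 acute-phase and NF-kB cytokine genes 5 were higher and 6 lower, with a median of -0.04, from LIF, a gp130 cytokine, at 0.716 to SAA1. Against cluster 0 alone 9 of the 11 were lower, and against cluster 1 alone 8 were higher, 4 of them past 2-fold. Against cluster 2 alone 6 were higher, 4 of them past 2-fold. Of 11 heat shock genes 9 were lower, with a median of -0.16. The medians were -0.24 for 10 genes of amino acid and unfolded protein stress, -0.16 for 12 matrix genes, -0.14 for 12 immediate early genes, -0.10 for 9 genes of glycolysis and hypoxia, -0.04 for 9 TGF-beta response genes and -0.04 for 7 p53 targets. Of the matrix genes 12 of 13 were lower than in cluster 0, with a median of -0.53, and 8 of 12 higher than in cluster 1, 3 of them past 2-fold. Of the TGF-beta response genes 9 of 9 were lower than in cluster 0 and 7 of 9 higher than in cluster 1. Against cluster 2 alone 11 of 13 immediate early genes and 13 of 13 genes of glycolysis and hypoxia were lower, both with a median of -0.56. The genes of amino acid and unfolded protein stress had a median of -0.37 against cluster 0, -0.08 against cluster 1 and 0.00 against cluster 2. Most of the medians against clusters 0 to 2 together lay near the -0.12 of all tested genes. After centring on it the medians for the cytokine, glycolysis, TGF-beta response and p53 groups were above 0, at 0.08, 0.02, 0.07 and 0.08. With cells thinned to 30000 UMIs the cytokine and glycolysis medians were -0.22 and -0.15, below the -0.10 of all genes. Those of the TGF-beta response and p53 groups, at -0.05 and -0.03, stayed above it.

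Summed over its cells, nuclear RNA was not high in cluster 3. The nuclear-retained RNAs summed to 3860 CPM, against 5688, 4678 and 6508 CPM in clusters 0, 1 and 2, and all 8 tested members were lower than in clusters 0 to 2, with a median log2 ratio of -0.44. MALAT1 had a ratio of 0.749, NEAT1 of 0.717 and KCNQ1OT1 of 0.585. Among G2M cells the sum was 4089 CPM against 4731. Genes known for detained introns and for nuclear speckles, as a stand-in for unspliced RNA, were lower in 21 of 22 cases, with a median of -0.28. TRA2A was the exception with a ratio of 1.06. The count tables hold 1 value per gene, so spliced and unspliced reads cannot be separated. Genes named by clone or as antisense were split, 38 higher and 46 lower of 84, with a median of -0.03.

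By median, short genes were higher and long genes lower, with ribosomal protein and respiratory chain genes left in the length groups. The median log2 ratio was 0.10 for 558 genes spanning up to 5 kb and -0.22 for 1212 genes over 100 kb. By longest transcript it was 0.19 for 230 genes up to 1 kb and -0.27 for 749 genes over 8 kb. Among G2M cells the medians were 0.10 and -0.13 by span, the latter near the -0.10 of all genes there, and 0.16 and -0.20 by longest transcript. Of 83 cytosolic ribosomal protein genes 79 were higher, with a median of 0.24, and they made up 181547 CPM in cluster 3 against 153923 CPM in clusters 0 to 2. Of 79 nuclear genes of the respiratory chain 64 were higher, with a median of 0.16. Of 29 genes for folding and import in the endoplasmic reticulum 26 were lower, with a median of -0.34. HSP90B1, a chaperone there, was at 682 CPM against 1085, PDIA3, a disulfide isomerase, at 156 against 244, and PPIB, a prolyl isomerase, at 303 against 481. These medians kept their sign when the ratios were centred on the median of all genes. The 13 mitochondrially encoded genes had a median of -0.18, which was -0.06 after centring and 0.02 in the G2M comparison.

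MALAT1 was among the genes that varied more between the cells of cluster 3. Before thinning it ranged from 663 CPM at the 10th to 6424 CPM at the 90th percentile of those cells, and its Fano factor in G2M cells was 79.0, against 38.6 and 36.3 in clusters 0 and 1. After thinning, the median of MALAT1 in G2M cells was 2033 CPM in cluster 3, against 3533 and 2800 in clusters 0 and 1. The 90th percentile stood the other way, at 7033 CPM against 6347 and 5533. NCL, which encodes nucleolin, had Fano factors of 7.63, 4.26 and 5.57, and STAG1, a cohesin subunit, of 2.09, 1.45 and 1.24. Its level moved together with that of other genes across these cells. Correlations were taken for the 1780 genes that reach 100 CPM over the whole library, and 27 had a Spearman's rho over 0.5 with MALAT1 across the 90 cells of cluster 3 after thinning. In clusters 0, 1 and 2, with 640, 628 and 91 cells, the count was 0. The highest rho in cluster 2, which is of like size, was 0.44.

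The genes that ran with MALAT1 were NCL (rho 0.78), HNRNPU (0.73), a nuclear matrix protein, HNRNPA2B1 (0.70), an RNA-binding protein, HSP90AB1 (0.69), a cytosolic chaperone, and SFPQ (0.68), a paraspeckle protein. In cluster 2 the same genes had rho of 0.07, 0.10, -0.12, -0.05 and -0.13. PNN, a splicing-associated protein, TPR of the nuclear pore, SMC1A of cohesin and the noncoding RNA KCNQ1OT1 were also over 0.5. At the other end RPLP1, a ribosomal stalk protein, had a rho of -0.54 and MIF, a secreted cytokine, of -0.52. The 83 ribosomal protein genes had a median rho of -0.30 in cluster 3 and of -0.06, -0.08 and -0.16 in clusters 0, 1 and 2. CTNNB1 had a rho of 0.33 and HNRNPH1 of 0.06. These cells share a library and were thinned to 1 depth, and MALAT1 and its partners were chosen after their values were seen.

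**Figure D5:**
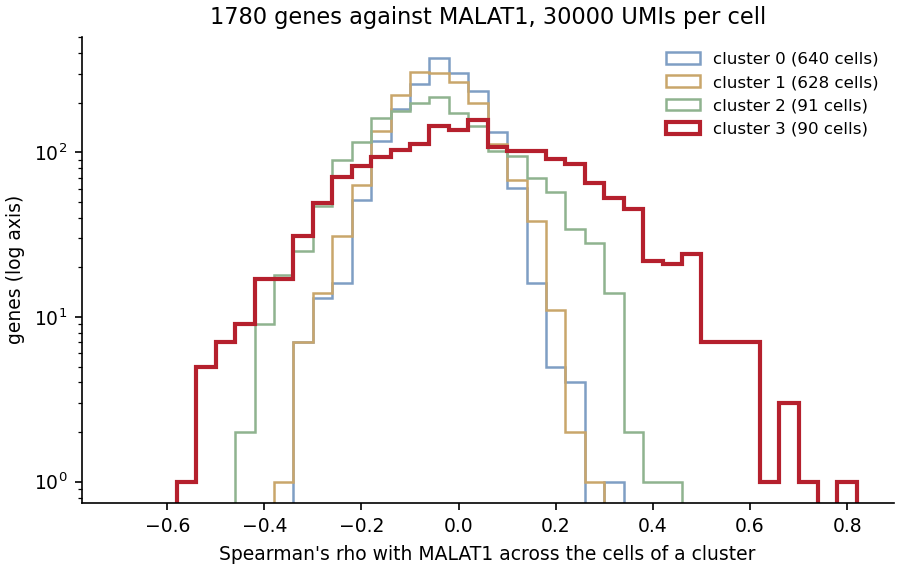
Number of genes, on a logarithmic axis, by Spearman's rho with MALAT1 across the cells of each WM983B cluster, for 1780 genes after thinning to 30000 UMIs per cell. Cluster 3 has 27 genes over 0.5, up to 0.78, and clusters 0, 1 and 2 have none, with a highest value of 0.44 in cluster 2.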

How the data were processed

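Members and gene lists were chosen with earlier results of these data known. The deposited matrix holds UMI counts, which the authors obtained by running Cell Ranger against hg38 with no scaling for depth. The Cell Ranger version, its annotation and its treatment of introns are not given in the sources used here. In Seurat V3 the authors filtered cells on gene number, at the high end against doublets, and on mitochondrial percent, normalized with SCTransform and clustered. Their deposited metadata give clusters, the percent of mitochondrial and of RPS-gene UMIs, and phase scores, used as they stand. No doublet caller was run here. Peak lists, the UCell score and the other libraries' states were not used.

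Counts were summed over cells and scaled to CPM, and genes with at least 20 CPM in either group were compared by their ratio. Exact Poisson, conditional and Clopper-Pearson intervals at 95% cover counting error only. Python 3.11.15 with numpy 2.4.6, scipy 1.17.1 and pandas 2.3.3 was used, and the calculations were tested on simulated data. Cells were thinned to 30000 UMIs, which left out 0 cells. Named genes include the proposed markers, the study's state markers and the 15 highest and 15 lowest ratios. The 10 at each end among G2M cells and members at the ends of each list were also named. Further genes, such as the examples of spread, of detection and of correlation with MALAT1, were chosen after their values were seen. The gene lists for the endoplasmic reticulum, ribosome, respiratory chain, mitochondrial and clone-named genes and the comparison with MALAT1 were added after seeing the data. Gene positions come from GENCODE release 44, which matched 97.6% of the tested symbols. Alternatives were another scaling, the mean over cells, thinning, other floors and G2M cells alone.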

Additional observations from a re-analysis of the deposited data

How the results depend on the processing

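Of 35 recomputed values 21 stayed within 1.5 times the reported count, or within the interval or SD of the reported value. The other 14 moved, and a turn of direction was not looked for. With cells thinned to 30000 UMIs, 5 genes in place of 1 were more than 2-fold lower in cluster 3 than in clusters 0 to 2. The counts depend on the floor on low levels. With a floor of 5 CPM they were 19 higher and 23 lower against clusters 0 to 2 and 45 and 84 among G2M cells, with 50 CPM 7 in place of 11 were higher among G2M cells, and with no floor they were 1647 and 960, and 1734 and 900. The G2M share was 76.7% under the other phase call. The nuclear-retained sum was 4089 CPM in G2M cells, 984 CPM without MALAT1 and 3794 CPM after thinning, against 4731, 1409 and 5303 CPM in the cells compared. No paired analysis was possible because WM983B has 1 library and no result comes from a test. The depth of 7484811 UMIs puts a count of 0 in cluster 3 at up to 0.401 CPM.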
